A study of Rattus norvegicus with 6 samples.

Results

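The miRNAs described here come from the X-linked miR-322, miR-503, miR-351, miR-542 and miR-450 cluster, measured in rat hearts. The 8 members were chosen by their mature IDs in the deposited count table, namely rno-miR-322-5p, rno-miR-322-3p, rno-miR-503-5p, rno-miR-351-5p, rno-miR-450a-5p, rno-miR-450b-5p, rno-miR-542-3p and rno-miR-542-5p (the prefix is dropped below), out of 1191 mature IDs in all, of which 699 carry miRBase names. Small RNA was sequenced from 3 normal hearts and from 3 hearts whose left anterior descending coronary artery was closed by a ligature for 0.5 h before 0.5 h of restored flow, called reperfused hearts from here on. All 6 hearts were from wild-type Rattus norvegicus; the normal hearts are labelled as controls, no sham operation is named, and no label read here states the strain, the age or the sampled part of the heart. The labels identify each heart by a number alone, so the p-values rest on the variation among these 6 hearts, which may be partly technical.

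miRNAs of a cluster are cut from a shared primary transcript as hairpins, and each hairpin can yield a mature strand from its 5p and its 3p arm. The seed, bases 2 to 8 of the mature strand, is the main determinant of which mRNAs a miRNA pairs with. miR-322, the rodent counterpart of human miR-424, and miR-503 are known from mouse myoblasts as miRNAs that rise during differentiation and restrain the cell cycle, and miR-322 and human miR-424 were described in endothelial cells under hypoxia. miR-542-3p is known from human cells as a regulator of the apoptosis inhibitor survivin, and miR-351 carries the seed of the miR-125 family.

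The mature sequences are shown to make these seed relations visible, each written 5′ to 3′ with the seed in capitals. All 8 equal the RefSeq entries of the same name (GRCr8).
miR-322-5p: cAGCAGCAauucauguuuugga
miR-503-5p: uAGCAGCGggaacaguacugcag
miR-322-3p: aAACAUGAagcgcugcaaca
miR-351-5p: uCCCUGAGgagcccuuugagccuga
miR-450a-5p: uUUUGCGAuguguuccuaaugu
miR-450b-5p: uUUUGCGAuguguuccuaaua
miR-542-3p: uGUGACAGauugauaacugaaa
miR-542-5p: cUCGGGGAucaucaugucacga

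These are 7 different seeds, since miR-450a-5p and miR-450b-5p share theirs. miR-322-5p and miR-503-5p agree over bases 2 to 7 and differ at base 8. In RefSeq the 6 hairpins lie on the minus strand of chromosome X at chrX:137720933-137726241 (GRCr8), within 5309 bases, in the order Mir322, Mir503, Mir351, Mir542, Mir450b-1 and Mir450a1 in the direction of transcription. Mir322 and Mir503 are 220 bases apart, Mir503 and Mir351 659, Mir351 and Mir542 2861, Mir542 and Mir450b-1 1029, and Mir450b-1 and Mir450a1 54. The hairpin Mir322 is shown because both of its arms were counted; the capitals mark miR-322-5p, then miR-322-3p.
Mir322: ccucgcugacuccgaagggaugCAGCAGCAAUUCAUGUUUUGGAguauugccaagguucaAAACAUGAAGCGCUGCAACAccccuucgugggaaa

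Levels are CPM, all-isoform tag counts per 1000000 tags of a library after scaling with TMM factors; the deposited all-isoform column sums every tag assigned to a miRNA. Total counts were 6963312 to 8429988 in normal and 1376947 to 2814802 in reperfused libraries, so depth and group go together and cannot be told apart. Entries with a predicted rather than a miRBase name took 1.09% to 1.29% of counts in normal and 5.46% to 13.6% in reperfused libraries. Heart muscle markers were present in all 6 libraries, summed to 249121 to 442303 CPM in normal and 194924 to 301545 CPM in reperfused hearts (6 of 6 markers counted everywhere). The summed level of 6 smooth muscle and fibroblast markers was 127950 to 150182 against 121304 to 127546 CPM, of 5 leukocyte markers 601 to 685 against 489 to 593 CPM, and of 3 red cell markers 2524 to 2934 against 1459 to 1889 CPM, without overlap between the groups. The endothelial pair of markers overlapped (59755 to 117720 against 55658 to 63557 CPM), and so did the liver marker (30.4 to 82.5 against 79.1 to 867 CPM). The sum of the 2 neural markers was at 72.9 to 77.3 against 80.9 to 122 CPM, higher without overlap. Of single tested miRBase-named miRNAs, 38.7% were lower in reperfused hearts without overlap and 2.30% higher. Every marker of these lists was counted in all 6 libraries except 1 of the neural ones. None was at 0 throughout, and the part of these lists in the results below was not tested.

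The cluster was a minor component of the heart's miRNAs. Its 8 members held 0.0955%, 0.117% and 0.129% of all counts in normal hearts 1 to 3 and 0.0931%, 0.0938% and 0.0834% in reperfused hearts 1 to 3. The reperfused hearts all lay below the normal ones, the means being 0.114% ± 0.0172 and 0.0901% ± 0.00579 (SD, n = 3 each), and a two-sided exact permutation test gave p = 0.1, which is the smallest value possible with 3 against 3. The lowest normal heart and the nearest reperfused ones were within counting error of each other: the 95% Wilson interval was 0.0932% to 0.0978% for normal heart 1 and 0.0881% to 0.0983% for reperfused heart 1. As a share of miRBase-named counts the groups overlapped, at 0.0967%, 0.118% and 0.131% in normal and 0.108%, 0.102% and 0.0882% in reperfused hearts 1 to 3. In whole-tissue RNA, fewer cells of a type and less RNA per cell cannot be told apart.

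Within the cluster, miR-450a-5p was the most abundant member in all 6 libraries and ranked 73 among the 699 miRBase-named miRNAs. It was followed in every library by miR-450b-5p (rank 98), miR-322-3p (119), miR-351-5p (123), miR-322-5p (143), miR-542-3p (167), miR-503-5p (191) and miR-542-5p (413). Over the 6 libraries the ranges of miR-450a-5p and miR-450b-5p overlapped, as did those of miR-322-3p and miR-351-5p; the other neighbours in this order did not overlap. miR-450a-5p made up 49.0% ± 0.720 of the cluster's counts in normal and 45.3% ± 1.74 in reperfused hearts, and miR-450b-5p 21.9% ± 3.50 and 21.4% ± 1.31 (SD, n = 3 each). Different miRNAs ligate to adaptors with different efficiency, so the order is that of the all-isoform counts. In counts of the most abundant tag of each miRNA, miR-322-5p exceeded miR-322-3p and miR-351-5p in all 6 libraries. Normal heart 1 had 179, 121 and 91 such counts in that order, and reperfused heart 1 had 45, 23 and 19.

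**Figure D1:**
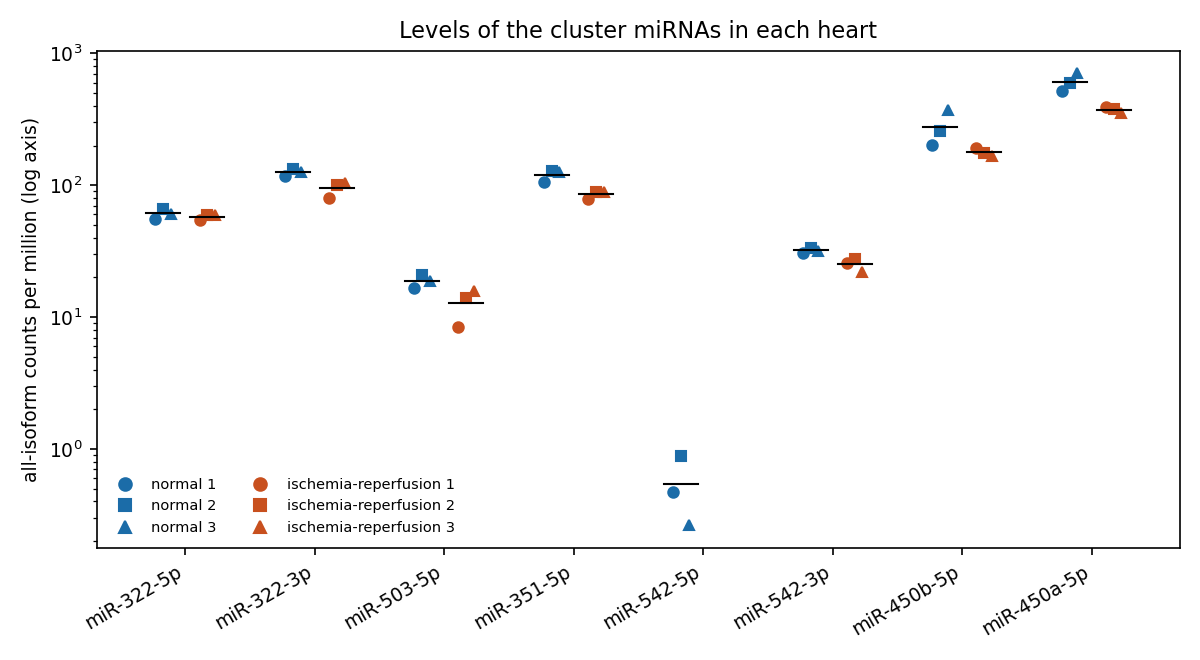
All-isoform CPM (log axis) of each member in the 6 hearts, in the order of transcription, with group means as bars. miR-450a-5p is highest in every library (355 to 705 CPM), miR-322-5p overlaps between the groups, and miR-542-5p has no point after ischemia-reperfusion because its cells are blank there.

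The design asks whether members of the cluster differ in level shortly after flow is restored to the tied artery. Of the 8 members, 7 passed the filter on low counts; 1 of them, miR-450a-5p, fell, and 0 rose (edgeR quasi-likelihood test, adjusted p under 0.05). Among all tested miRBase-named miRNAs, 13.8% were called lower and 0.984% higher, so 1 of 7 is near that background; over all 524 tested entries, predicted ones included, 9.35% were lower and 33.4% higher. Without adjustment, 3 members had p under 0.05, all lower, where 23.3% of tested miRBase-named miRNAs were. DESeq2 called 2 lower and 0 higher, and limma-voom 1 lower and 0 higher, where they called 16.1% and 12.5% of miRBase-named miRNAs lower. The median log2 fold change of the 7 was -0.49, beside -0.40 over the 305 tested miRBase-named miRNAs and -0.17 over all 524 tested entries.

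miR-450a-5p, from the last hairpin of the cluster, stood at 521, 595 and 705 CPM in normal hearts 1 to 3 and at 392, 377 and 355 CPM in reperfused hearts 1 to 3. The groups did not overlap, and the normal hearts were spread more widely. Normal hearts averaged 607 ± 92.4 CPM and reperfused hearts 375 ± 18.2 CPM (SD, n = 3 each). The fall came to -0.70 ± 0.16 on the log2 scale (SE; edgeR adjusted p = 0.0120), which differs by -0.29 from the median of miRBase-named miRNAs. The call was lost with total counts (adjusted p = 0.0722, where 5.25% of miRBase-named miRNAs were lower), with factors from miRBase-named miRNAs (0.175), when these were fitted alone (0.310, 0.984% lower), in exact mature sequence counts (0.172), and without reperfused heart 2 (0.0540) or heart 3 (0.0600). In the authors' deposited table its fold of ischemia-reperfusion over normal was 0.745, with p = 0.0408 and a false discovery rate of 0.239.

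miR-450b-5p, with the same seed, was at 200, 256 and 373 CPM in normal hearts 1 to 3 and at 190.3, 175.5 and 166 CPM in reperfused hearts 1 to 3. The reperfused hearts were all lower, by a narrow margin against normal heart 1. Its log2 fold change was -0.64 ± 0.25 (SE; edgeR adjusted p = 0.0782), and it did not pass with all 6 libraries. Without normal heart 1 it was called lower (-0.91, adjusted p = 0.0188), as were miR-351-5p (-0.65, 0.0254) and miR-450a-5p, so that the count of members called lower was 3 in place of 1. The median over tested miRBase-named miRNAs was also lower in that fit, at -0.49 beside -0.40 with all 6 libraries. The share of miRBase-named miRNAs called lower in that fit was not worked out.

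miR-322-5p, which carries the miR-15/16 seed, and miR-503-5p, which shares bases 2 to 7 of it, did not pass. miR-322-5p was at 55.9, 66.3 and 60.9 CPM in normal hearts 1 to 3 and at 54.4, 59.6 and 59.7 CPM in reperfused hearts 1 to 3. The groups overlapped, with a log2 fold change of -0.08 ± 0.17 (SE; edgeR adjusted p = 0.737), and the value was above 0 when the libraries were scaled by RLE (0.04), by their totals (0.16) or by miRBase-named miRNAs alone (0.28). miR-503-5p was at 16.5, 21.01 and 18.8 CPM in normal and at 8.41, 13.97 and 15.9 CPM in reperfused hearts 1 to 3. It was lower in every reperfused heart, on 13 to 46 counts per library. The log2 fold change was -0.54 ± 0.36 (SE; edgeR adjusted p = 0.266), and -0.24 without reperfused heart 1.

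miR-322-3p, the other strand of the miR-322 hairpin, was at 117, 132 and 127 CPM in normal and at 80.3, 100.3 and 103 CPM in reperfused hearts 1 to 3. The groups did not overlap; the log2 fold change was -0.40 ± 0.17 (SE; edgeR adjusted p = 0.107), equal to the median of miRBase-named miRNAs to 2 decimals, and -0.21 without reperfused heart 1. miR-351-5p was at 105, 127 and 126 CPM in normal and at 79.0, 88.4 and 88.1 CPM in reperfused hearts 1 to 3. Its groups did not overlap either, and the log2 difference of -0.49 ± 0.17 (SE) missed the threshold by little, at an edgeR adjusted p = 0.0507. miR-351-5p was called lower by DESeq2 (adjusted p = 0.0123).

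miR-542-3p was at 30.7, 33.5 and 31.8 CPM in normal and at 25.9, 27.5 and 22.1 CPM in reperfused hearts 1 to 3. All reperfused hearts were lower, with a log2 fold change of -0.35 ± 0.23 (SE; edgeR adjusted p = 0.277) that was 0.01 when miRBase-named miRNAs set the factors and -0.13 without reperfused heart 3. miR-542-5p had 3, 7 and 2 counts in normal hearts 1 to 3, none of them the listed mature sequence, and blank cells in the reperfused libraries. The smallest count listed in the table is 2, so a blank can stand for 0 or 1 tag, and at these depths a difference was not detectable for miR-542-5p.

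Counted without a threshold, 6 of the 7 tested members had groups that did not overlap, all lower after ischemia-reperfusion. Among tested miRBase-named miRNAs 38.7% were lower without overlap and 2.30% higher. The level of the whole class moves with the scaling, its median going from -0.40 to -0.05 with factors from miRBase-named miRNAs, -0.16 with total counts and -0.89 with upper-quartile factors. The median of the 7 members moved with it, to -0.13, -0.25 and -0.99. With upper-quartile factors 5 of the 7 were called lower, where 47.5% of miRBase-named miRNAs were; with factors from miRBase-named miRNAs 0 of the 7 were called by edgeR (0 also at an unadjusted p under 0.05), where 4.26% were lower. Under each of these 4 scalings miR-450a-5p and miR-450b-5p had the lowest values and miR-322-5p the highest.

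**Figure D2:**
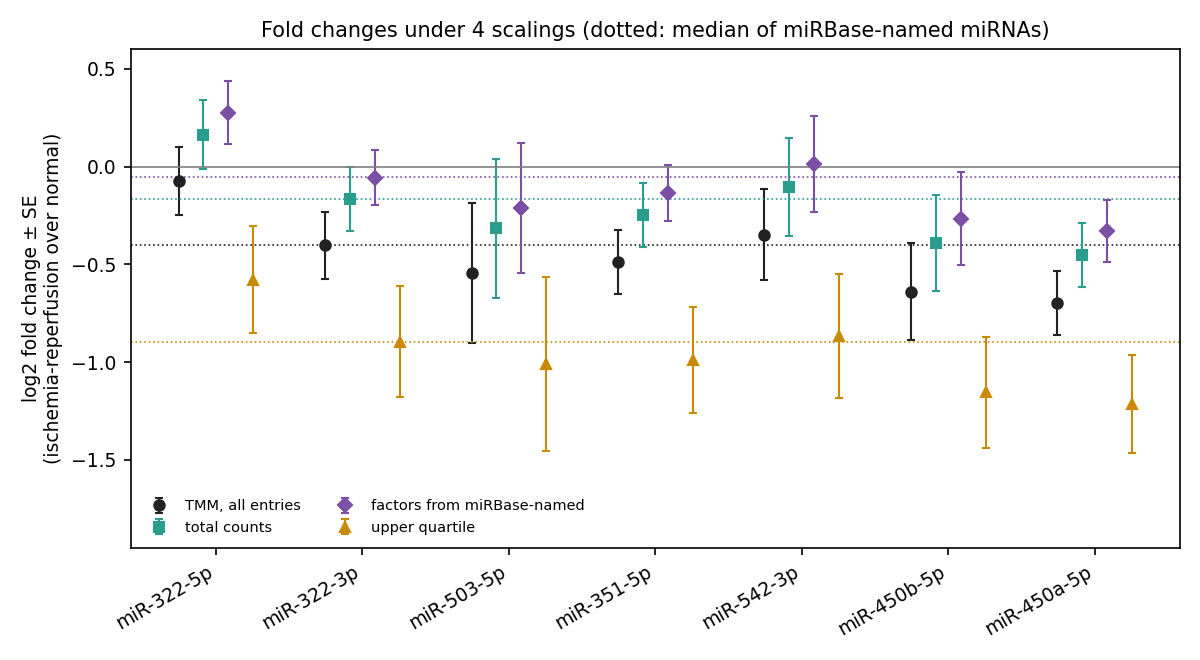
Log2 fold change with its standard error of the 7 tested members under 4 scalings, in the order of transcription; dotted lines give the median of miRBase-named miRNAs under the scaling of the same colour. miR-322-5p lies above the dotted line of its colour and miR-450b-5p and miR-450a-5p below it in all 4 cases, while the values as a whole shift from one scaling to the next.

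Ratios within a library do not use scaling factors. miR-322-5p held 5.34%, 5.39% and 4.22% of the cluster's counts in normal hearts 1 to 3 and 6.55%, 7.07% and 7.37% in reperfused hearts 1 to 3. Its share was thus higher in every reperfused heart, by 2.02 percentage points on average (4.98% ± 0.658 and 6.998% ± 0.413, SD, n = 3 each; two-sided exact permutation p = 0.1, the smallest possible). The log2 ratio of miR-322-5p to miR-322-3p was -1.06, -0.99 and -1.06 in normal and -0.56, -0.75 and -0.79 in reperfused hearts 1 to 3. In all-isoform counts the 3p strand thus had more than the 5p strand in all 6 hearts, and by less after ischemia-reperfusion. The means were -1.04 ± 0.04 and -0.70 ± 0.12 (SD, n = 3 each). The exact permutation test gave p = 0.1 and an adjusted p = 0.3 over 3 ratios. Among 45 miRBase-named hairpins with at least 10 counts of each arm in every library, the 5p over 3p ratio was higher without overlap in 13.3% and lower in 6.67%, and miR-322 ranked 13 by the shift toward 5p.

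The miR-503 hairpin gave log2 ratios of 5p to 3p of 0.36, 0.52 and 0.38 in normal and -0.30, 0.84 and 1.00 in reperfused hearts 1 to 3. The reperfused hearts lay on both sides of the normal hearts (exact permutation p = 1.0, adjusted p = 1.0), and the counts of either arm there were 13 to 46. The log2 ratio of miR-450a-5p to miR-450b-5p was 1.38, 1.22 and 0.92 in normal and 1.04, 1.10 and 1.09 in reperfused hearts 1 to 3, with overlap between the groups (exact permutation p = 0.6, adjusted p = 0.9).

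**Figure D3:**
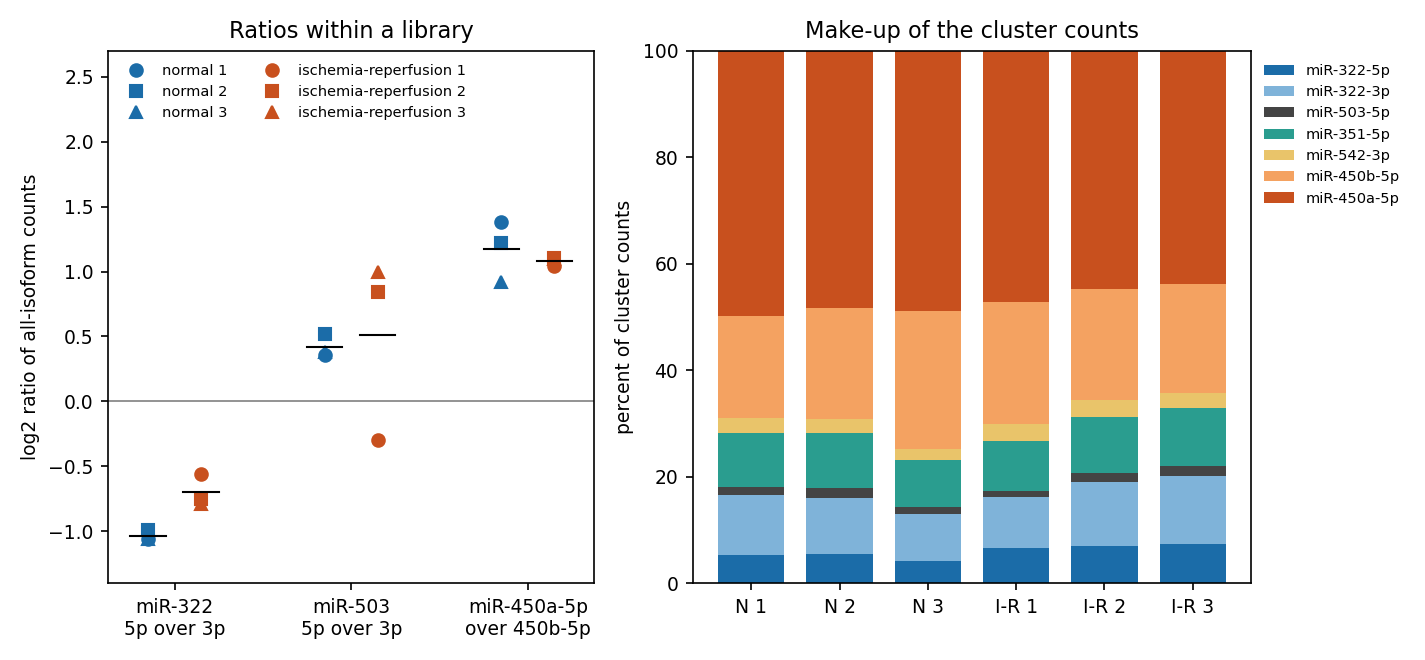
Left, log2 ratios of all-isoform counts within each library, with group means as bars; right, the percent of the cluster's counts held by each member in normal (N) and ischemia-reperfusion (I-R) hearts, without miR-542-5p, which held under 0.1%. The miR-322 arm ratio is between -1.06 and -0.99 in normal and between -0.79 and -0.56 in reperfused hearts, and miR-450a-5p is the largest component of each bar.

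The split of reads between the miR-450 members is uncertain because their sequences coincide over their first 20 bases. The mature strands and the most abundant tag listed for miR-450b-5p are set side by side, with capitals for the bases beyond those 20 and U written for the T of the tag.
miR-450a-5p: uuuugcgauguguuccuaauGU
miR-450b-5p: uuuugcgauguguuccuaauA
miR-450b-5p tag: uuuugcgauguguuccuaau
The mature strands differ by G21A, counted from the 5′ end of miR-450a-5p. The tag ends before that base, so it is a start of either strand and does not tell them apart. It made up 45.6% to 50.1% of the miR-450b-5p counts in normal and 46.9% to 51.1% in reperfused hearts, against 10.2% to 14.8% and 13.3% to 15.99% for the listed mature sequence, and neither the labels nor the file headers say how the authors assigned such tags.

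Members differed in how much of their count was the listed mature sequence. In miR-322-5p it was 51.1% ± 1.55 in normal and 50.9% ± 3.03 in reperfused hearts, and in miR-450a-5p 43.4% ± 4.02 and 45.2% ± 1.70 (SD, n = 3 each). For these members and for miR-322-3p the listed sequence was also the most abundant tag, but in miR-322-3p it made up 14.9% ± 1.75 and 15.7% ± 2.73 of the counts (SD, n = 3 each). In miR-542-3p the listed sequence held 16.6% ± 3.37 and 19.7% ± 3.08, and the most abundant tag, 2 bases shorter at its 3′ end, 26.7% to 38.2% and 32.8% to 45.0%. The median share over 217 miRBase-named miRNAs with at least 10 counts in every library was 17.1%, with quartiles of 6.19% and 37.6%.

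miR-351-5p had the lowest share among the 7. Its listed 25-base sequence held 1.64%, 1.5% and 1.89% of its counts in normal and 2.46%, 0 (a blank cell) and 1.96% in reperfused hearts 1 to 3. The most abundant tag is set beside it, with capitals after their common first 21 bases.
miR-351-5p: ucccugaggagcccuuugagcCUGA
miR-351-5p tag: ucccugaggagcccuuugagcU
The tag is 22 bases long, differs from the listed sequence by C22U, counted from the 5′ end, and is not found in the RefSeq hairpin. It held 11.6% to 14.2% of the counts in normal and 14.4% to 15.6% in reperfused hearts.

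miR-503-5p had a tag 3 bases shorter than the listed sequence as its most abundant form, though in normal heart 1 the listed sequence had more counts, 13. That tag had 10, 28 and 21 counts in normal and 5, 7 and 12 in reperfused hearts 1 to 3, which is 9.52%, 16.97% and 14.8% of the counts in normal and 38.5%, 20.6% and 26.1% in reperfused hearts. The share was higher in every reperfused heart, by 14.6 percentage points on average (two-sided exact permutation p = 0.1, or 0.35 when adjusted over 7 members), on few counts and at a lower depth, whose part in this was not tested. The most abundant tag of miR-351-5p also held a higher share without overlap, by 1.70 points (exact permutation p = 0.1, adjusted p = 0.35). In the other members tested the groups overlapped. How often this share differs among other miRBase-named miRNAs was not worked out. For the listed sequence, none of the 7 members passed a test of its share between the groups (exact permutation p from 0.3 to 1.0, adjusted p = 1.0 over 7), and the groups overlapped in each.

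**Figure D4:**
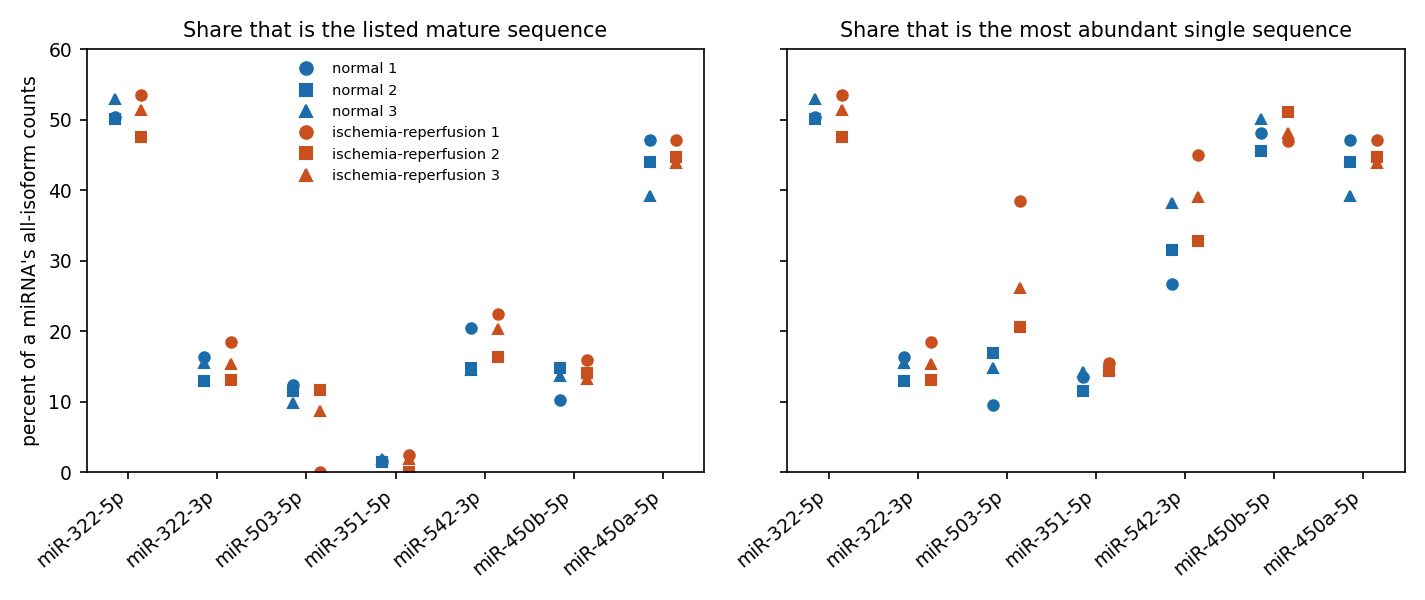
Percent of each member's all-isoform counts that is the listed mature sequence (left) and the most abundant single sequence (right), with a point for each of the 6 hearts. miR-322-5p (47.6% to 53.6%) and miR-450a-5p (39.1% to 47.1%) have the same values in both panels, miR-351-5p is at or under 2.46% on the left, and miR-450b-5p is at 10.2% to 15.99% on the left and at 45.6% to 51.1% on the right.

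Over the 6 hearts the other mature arms of these hairpins had lower mean CPM than the member from the same hairpin. In reperfused heart 1, though, miR-503-3p had 16 counts and miR-503-5p 13. miR-503-3p was at 12.9, 14.6 and 14.4 CPM in normal and 10.4, 7.81 and 7.94 CPM in reperfused hearts 1 to 3, lower in every reperfused heart, with a log2 fold change of -0.69 ± 0.35 (SE; edgeR adjusted p = 0.157). miR-450b-3p had 34 to 37 counts in normal and 3 to 7 in reperfused libraries, without overlap in CPM, and its log2 fold change was -1.19 ± 0.43 (SE; edgeR adjusted p = 0.0588). miR-450a-3p, with 11 to 13 counts in normal libraries and 2 in reperfused heart 3 alone, and miR-351-3p, blank in all 6 libraries, did not pass the filter. Of these 4 arms, edgeR, DESeq2 and limma-voom called 0 of the 2 tested, 1 of which, miR-450b-3p, passed in edgeR before adjustment. With upper-quartile factors edgeR called both miR-450b-3p (adjusted p = 0.0281) and miR-503-3p (0.0322) lower, where 47.5% of miRBase-named miRNAs were. With summed rows of a mature ID edgeR called miR-450b-3p alone (0.0423). What share of miRBase-named miRNAs that fit called lower was not worked out. Whether the summed rows of an ID repeat the same tags was not tested.

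The seeds set the members beside miRNAs from other loci. The miR-15/16 family, known for restraining the cell cycle and cardiomyocyte proliferation, carries the seed of miR-322-5p, as its most abundant member in these hearts shows.
miR-16-5p: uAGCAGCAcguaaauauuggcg
miR-125b-5p: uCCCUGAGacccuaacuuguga
miR-125b-5p is shown because it shares the seed of miR-351-5p. Of the counts of the 7 miRBase-named miRNAs with AGCAGC at bases 2 to 7, miR-322-5p and miR-503-5p together held 7.91%, 9.25% and 9.82% in normal and 9.35%, 9.81% and 9.13% in reperfused hearts 1 to 3. These ranges overlapped, and the 95% Wilson interval of reperfused heart 1, the shallowest library, was 7.73% to 11.3%. miR-351-5p held 2.87%, 3.14% and 3.81% of the pool with CCCUGA in normal and 4.24%, 3.46% and 2.95% in reperfused hearts 1 to 3, again with overlap. miR-450a-5p and miR-450b-5p were the 2 miRBase-named miRNAs listed with UUUGCG, and their pool was at 722, 851 and 1078 CPM in normal and 582, 553 and 522 CPM in reperfused hearts 1 to 3, without overlap. The pool with CCCUGA was also lower without overlap, at 3672, 4049 and 3299 against 1862, 2551 and 2986 CPM, while that with AGCAGC overlapped, at 916, 945 and 811 against 671, 749.6 and 829 CPM.

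Of the 5 members of the miR-15/16 list (miR-15a-5p, miR-15b-5p, miR-16-5p, miR-195-5p and miR-497-5p), 0 passed edgeR, DESeq2 or limma-voom, and edgeR's p before adjustment was under 0.05 for 0 of them. Their groups overlapped, and the median log2 fold change was -0.23. For miR-16-5p the normal mean was 428 ± 64.7 CPM and the reperfused mean 366 ± 30.5 CPM (SD, n = 3 each; edgeR adjusted p = 0.312). With upper-quartile factors edgeR called miR-16-5p (adjusted p = 0.0354) and miR-195-5p (0.0279) lower, where 47.5% of miRBase-named miRNAs were. Of the miR-125 list, miR-125a-5p (-0.59 ± 0.20, SE) and miR-125b-5p (-0.57 ± 0.21, SE) had adjusted p of 0.0532 and 0.0734 in edgeR, 2 of 2 with p under 0.05 before adjustment, as had the 23.3% given above. miR-125a-5p was called lower by DESeq2 (0.0435) and by limma-voom (0.0485). With factors from miRBase-named miRNAs the values were -0.25 (adjusted p = 0.373) for miR-125a-5p and -0.23 (0.412) for miR-125b-5p, and without reperfused heart 1 they were -0.35 and -0.30 (0.183 and 0.208). Their groups did not overlap, at 1470 to 1915 against 863 to 1326 CPM for miR-125a-5p and at 1704 to 2007 against 920 to 1572 CPM for miR-125b-5p.

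The likeness of miRNA profiles to that of miR-322-5p was described by Pearson's r of log2(CPM + 1) over the 6 libraries, which share depth and group. Among 119 miRBase-named miRNAs outside the cluster with a mean of at least 100 CPM, the 5 most alike were miR-93-5p (r = 0.91), miR-181b-5p (0.91), miR-218a-5p (0.89), miR-148a-3p (0.89) and miR-195-5p (0.86). Within the cluster, r with miR-322-5p was 0.79 for miR-503-5p, 0.74 for miR-322-3p, 0.70 for miR-351-5p, 0.45 for miR-450a-5p, 0.43 for miR-450b-5p and 0.43 for miR-542-3p. miR-322-3p, miR-503-5p and miR-351-5p were more alike among themselves (0.86 to 0.97) than any of them was to miR-322-5p, but miR-351-5p was closer to miR-450a-5p (0.93) than to miR-503-5p (0.86). miR-450a-5p and miR-450b-5p had r = 0.93.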

How the data were processed

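Small RNA libraries of 15 to 35 bases were made from Trizol-extracted heart RNA by adaptor ligation to both ends, PCR and size selection, and sequenced on an Illumina NextSeq, per the labels' protocols. Novoalign 2.07.11 is named in the submitters' processing notes without its role; the genome build and the miRBase release are stated in none of the sources read. Per the file headers, the deposited columns hold raw counts of tags in 3 measures: all isoforms of a miRNA, its most abundant tag, and its exact mature sequence. In the authors' comparison the group means are a score with 10 added, the fold is the ratio of these means, and its p-value comes from a test not named there; 36 further columns of values per sample were not used.

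Of several rows with the same mature ID the one with the highest total was used, and blanks were read as 0. Counts were fitted in R 4.3.3 with edgeR 4.0.16 (filterByExpr, minimum count 10; TMM; robust quasi-likelihood F test; Benjamini-Hochberg over all 524 tested entries at 0.05), and SE are the log2 fold change over the square root of F. The fit was also run on simulated counts with changes set in both directions. These did not imitate the larger share of predicted entries in reperfused libraries, so they do not bear on the choice of scaling. Alternatives used DESeq2 1.42.0 and limma 3.58.1. Shares and ratios were compared with two-sided exact permutation tests (scipy 1.17.1), and 95% Wilson intervals cover counting error alone: the reads carry no molecular identifiers, so PCR copies count as separate tags. The text names all members, the other arms of their hairpins, 7 seed relatives and the 5 miRNAs most like miR-322-5p. Members and lists were chosen with earlier results of these data known.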

Additional observations from a re-analysis of the deposited data

How the results depend on the processing

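The count of members called lower, 1, became 5 with upper-quartile factors, 2 with no filter, DESeq2 or summed rows of a mature ID, and 0 with total counts, factors from miRBase-named miRNAs, miRBase-named miRNAs fitted alone or exact mature sequence counts; leaving out 1 library gave 0 to 3. It was also 1 after thinning to the smallest library total, an alternative chosen after seeing the data. Of tested miRBase-named miRNAs, 47.5% were called lower under upper-quartile scaling and 16.1% by DESeq2. This share was not worked out for the fits without a filter, on summed rows, on exact mature sequence counts, after thinning or without 1 library. Whether 2 members exceed the background in the unfiltered and summed fits is therefore not known. No member was called higher by edgeR, DESeq2 or limma-voom under any of the 20 alternatives. With the replicate number as a block the count was 0 (miR-450a-5p adjusted p = 0.0515), but the numbers are not shown to pair the hearts: same-numbered hearts had correlations of their deviations of -0.24, 0.01 and -0.16. The log2 fold change of miR-322-5p was above 0 after thinning (0.18), with DESeq2 (0.039), RLE scaling (0.042), library totals (0.16), miRBase-named factors (0.28) or a fit of named miRNAs alone (0.27), under a filter at a mean of 10 CPM (0.019) and in exact mature sequence counts (0.14), and ranged from -0.21 to 0.055 without 1 library. That of miR-503-5p turned to 0.45 in counts of the most abundant sequence. That of miR-542-3p turned to 0.011, 0.0017 and 0.095 with factors from miRBase-named miRNAs, these fitted alone and exact mature sequence counts. Without 1 library the differences between the groups ranged from -0.15 to 0.50 for the miR-503 arm ratio, from -0.22 to 0.010 for the ratio of miR-450a-5p to miR-450b-5p, and, in percentage points of the listed sequence, from -1.63 to 1.36 for miR-322-5p, -0.67 to 2.04 for miR-322-3p, -0.70 to 0.53 for miR-351-5p and -0.34 to 3.66 for miR-450a-5p. With the most abundant tag as numerator the differences were 14.6 for miR-503-5p and 1.70 for miR-351-5p. The miR-322 arm ratio (0.26 to 0.38 over 9 alternatives), the miR-322-5p share of the cluster (1.64 to 3.22 points over 9) and the cluster share of counts (-0.0332 to -0.0153 points over 10) kept the direction of their group difference. The exact permutation p of the cluster share was 0.2 in most abundant sequence counts, 0.3 with summed rows and 0.7 in exact mature sequence counts. In exact mature sequence counts that of the miR-322 arm ratio was 0.2, and 5p had more counts than 3p in every heart. The causes of these changes were not tested. With summed rows the group differences of the miR-322 and miR-503 arm ratios were 0.34 and 0.094, as without summing. That of miR-450a-5p to miR-450b-5p was also unchanged, at -0.093, though miR-450a-5p has 1 row and miR-450b-5p 2. Whether the rows of an ID repeat the same tags, which would count a read several times, was not tested. No value for the miR-503 arm ratio was possible in exact mature sequence counts, where miR-503-5p is blank in reperfused heart 1. Low counts limit miR-503-5p, miR-542-5p and the other arms.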
